A study of Mus musculus with 6 samples.

Results

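The guanylate-binding proteins (GBPs) and immunity-related GTPases (IRGs) described here are 10 genes of 52550 in the deposited table: Gbp2, Gbp3, Gbp5, Gbp7, Gbp8, Gbp9, Igtp, Irgm1, Irgm2 and Iigp1. They were found by symbol, and none of the symbols repeats in the table. The set had been selected on earlier results from the same counts, so the values of the 10 genes in the comparison of the groups are given as a description. They get no p-value, and counts of calls among them support nothing. The samples were bone marrow-derived macrophages of C57BL/6 mice, grown with macrophage colony-stimulating factor (M-CSF) at 25 ng/ml for 7 days and then given conditioned medium of chondrocytes. The C CM group (n = 3 libraries) received medium of normal chondrocytes and the AC CM group (n = 3 libraries) medium of apoptotic chondrocytes. No library of macrophages without conditioned medium was analysed here, and no interferon or microbe is named among the treatments. The labels do not say whether the 3 libraries of a group came from separate mice or cultures, so p-values measure only the spread between these libraries, which may be technical.

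GBPs and IRGs are GTPases that interferon-gamma induces strongly in mouse macrophages. Interferon-gamma acts through its receptor and the kinases JAK1 and JAK2. Promoters of its target genes carry gamma-activated sites (GAS) and interferon response elements, which IRF1 binds. The GTPases then coat the vacuoles that hold bacteria or parasites, or the microbes themselves, and help to break them open and to start inflammasome signalling. Within the IRGs, Irgm1, Irgm2 and Igtp (also called Irgm3) stay on the cell's own membranes and keep the other IRGs, such as Iigp1 (Irga6), inactive there.

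Regulator and effector IRGs differ in the nucleotide-binding loop of the protein. The 24 coding bases of that loop are shown because they split the IRG genes printed here the way their roles do, with the codon that differs in capitals (GRCm38, coding sequences of GENCODE M21). In Igtp (chr11:58206275-58206298, plus strand), Irgm1 (chr11:48866761-48866784, minus strand) and Irgm2 (chr11:58219695-58219718, plus strand) the loop has the same 24 bases, with a codon for methionine. In Tgtp2 (chr11:49059534-49059557, minus strand), an effector IRG, in Ifi47 (chr11:49095648-49095671, plus strand) and in Gbp2 (chr3:142623826-142623849, plus strand) the codon is one for lysine.
Igtp, Irgm1 and Irgm2: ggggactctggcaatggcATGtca
Tgtp2: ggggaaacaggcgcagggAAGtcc
Ifi47: gggcagtctgggactggcAAGtcc
Gbp2: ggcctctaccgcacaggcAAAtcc
All 6 GBPs of the set have a lysine codon there.

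Promoter windows from RefSeq (GRCm38.p6) were found for 7 of the 10 genes, with none for Gbp8, Gbp9 and Iigp1, and the 250 bases before each start were searched on both strands for 2 motifs. These genes have 8 windows, as Gbp3 has 2. The IRF core GAAANNGAA lay in 7 of 8 windows, at least 1 for each gene, against 7.13% of 32851 mouse promoter windows. The second window of Gbp3 held neither motif. The GAS TTCNNNGAA lay in 4 of 8 (Gbp5, Gbp7, Igtp and Irgm2), against 7.02%. Both stood together in those 4 windows and in 0.752% of all windows. A match is a description of letters and not evidence of binding. The stretches below carry these motifs in capitals: Gbp2 at chr3:142620595-142620623 (plus strand), Gbp3 at chr3:142559990-142560024 (plus strand), Gbp7 at chr3:142530220-142530302 (plus strand), Igtp at chr11:58199501-58199540 (plus strand), Irgm2 at chr11:58214892-58214931 (plus strand) and Tgtp2, a family gene outside the set, at chr11:49064264-49064303 (minus strand).
Gbp2: ctcttttagtTTCACTTTCactgtcttaa
Gbp3: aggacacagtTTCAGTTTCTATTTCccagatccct
Gbp7: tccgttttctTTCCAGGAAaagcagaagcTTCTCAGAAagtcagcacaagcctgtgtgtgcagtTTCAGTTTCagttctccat
Igtp: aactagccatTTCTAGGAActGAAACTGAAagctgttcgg
Irgm2: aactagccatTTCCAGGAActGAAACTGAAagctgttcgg
Tgtp2: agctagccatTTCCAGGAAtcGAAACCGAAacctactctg
In Gbp3 the capitals hold 2 overlapping IRF cores. The starts are those of RefSeq, and 22 of the 29 bases of Gbp2 lie in a GENCODE M21 exon. So do all 35 bases of the stretch of Irgm1, which is not printed. The 40 bases of Igtp and Irgm2 are the same in 39 positions, counted from 1 at the 5′ end, and differ by T14C from Igtp to Irgm2. The stretch of Tgtp2 matches that of Irgm2 in 32 of 40 positions, with a GAS and an IRF core a pair of bases apart in each.

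Library totals ran from 65630784 to 80105872 counts, and 17863 genes passed the filter on low counts, all 10 GBP and IRG genes among them. AC CM 2 and AC CM 3 stood apart: the summed level of 14 hepatocyte markers was 637 and 1457 CPM in them (counts per 1000000 of the scaled library total), 54.6 in AC CM 1 and 0.776 to 47.4 in the C CM libraries. Values without these 2 libraries are therefore given beside the results. Macrophage markers summed to 18406 to 22307 CPM in all 6 libraries, with all 12 markers detected. The markers of other blood cells were lower in AC CM. Those of T and NK cells summed to 18.2 to 18.8 CPM in C CM and 3.94 to 5.61 CPM in AC CM, with 9 of 11 tested genes called lower. Dendritic cell markers summed to 1009 to 1268 CPM and 679.7 to 711 CPM (11 of 12 lower), B cell markers to 179 to 205 CPM and 39.0 to 43.5 CPM (7 of 8), neutrophil markers to 870.1 to 1005 CPM and 186 to 200.4 CPM (9 of 11), and monocyte markers to 1959 to 2182 CPM and 1407 to 1469 CPM (5 of 10). None of these lists had a marker at 0 in all 6 libraries. Most of the dendritic cell sum was Cst3 alone, with means of 1039 CPM in C CM and 674 CPM in AC CM. The median log2 fold change (AC CM over C CM) of the tested dendritic cell markers was -2.09. The largest gene of the monocyte sum was Fn1, with means of 951 and 853 CPM, and the median of that list was -0.96. Endothelial and stromal markers summed to 4099 to 5145 CPM and 3287 to 3377 CPM (8 of 11 lower, 1 higher), and chondrocyte markers to 72.1 to 84.1 CPM and 108 to 111 CPM (1 of 6 higher, Cnmd at 0 throughout). The part of these cells in the levels below was not tested. In bulk RNA, fewer cells that carry a transcript and less of it per cell cannot be told apart.

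As a group, the 10 transcripts were less abundant in macrophages given medium of apoptotic chondrocytes, the GBPs of chromosome 3 the most and Irgm1 not measurably so. Their summed level was 970.1, 913 and 1131 CPM in C CM 1, 2 and 3, and 690.2, 707 and 676 CPM in AC CM 1, 2 and 3. Of the 10 genes, 9 were called lower in AC CM at an adjusted p under 0.05 (edgeR quasi-likelihood test, Benjamini-Hochberg over all genes tested). Of all genes tested, 13.3% were called lower, 13.3% higher and 26.5% in either direction. For 9 of the 10 genes every AC CM library lay under every C CM library, which held for 22.1% of all genes. As the set was selected on this contrast, nothing is read from these shares. The median log2 fold change (AC CM over C CM) of the 10 genes was -0.70 and that of all genes -0.0046. A fit without AC CM 2 and 3 takes the lone AC CM library to vary as the C CM libraries do. Its log2 fold changes ran from -1.54 for Gbp5 to 0.06 for Irgm1, the only gene of the 10 to change sign. As that fit reuses libraries of the same contrast, nothing is read from the kept signs.

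**Figure D1:**
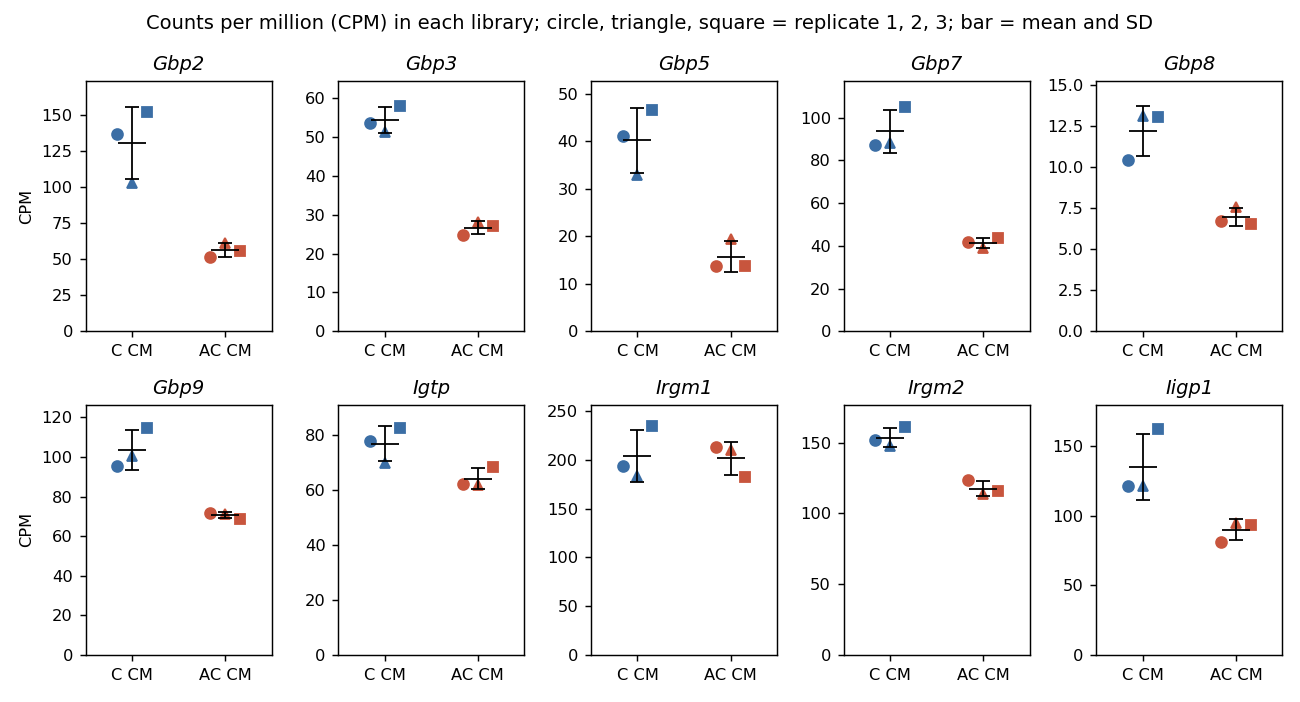
CPM (vertical axis, starting at 0) of each of the 10 genes in the 3 C CM libraries (blue) and the 3 AC CM libraries (red); symbols mark the replicate number and black bars the mean and SD. In 9 panels the red points all lie under the blue ones, and for Irgm1 the groups overlap.

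The 4 GBPs on chromosome 3 showed the widest gap. Gbp5, Gbp7, Gbp3 and Gbp2 lie in that order on the plus strand between 142493978 and 142638008 (GRCm38), and their fold changes ran from 2.04-fold to 2.56-fold lower. Gbp5, a GBP tied to NLRP3 inflammasome assembly, had 41.1, 33.0 and 46.6 CPM in C CM 1 to 3 and 13.8, 19.5 and 13.8 CPM in AC CM 1 to 3. The log2 fold change was -1.36 ± 0.17 (SE, n = 3 per group), and -1.54 without AC CM 2 and 3. AC CM 2 was the highest of its group and still well under the lowest C CM library.

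Gbp2, which coats the vacuole of Toxoplasma and cytosolic bacteria, had 137, 103 and 152 CPM in C CM and 51.7, 61.5 and 56.0 CPM in AC CM. The C CM libraries spread over a wide range, with C CM 2 lowest, and did not meet the AC CM range. Its log2 fold change was -1.21 ± 0.14 (SE), and -1.34 without AC CM 2 and 3. Gbp7, a GBP that takes part in oxidative and vacuolar defence, had 87.4, 88.1 and 105 CPM against 41.7, 39.0 and 43.4 CPM, with a log2 fold change of -1.18 ± 0.09 (-1.17 without AC CM 2 and 3). Gbp3 had 53.5, 51.4 and 58.0 CPM against 24.7, 28.0 and 27.2 CPM, with a log2 fold change of -1.03 ± 0.09 (-1.14 without AC CM 2 and 3), and both groups were tight. Leaving out any single library kept the 4 genes between -1.54 and -0.98 on the log2 scale.

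On chromosome 5, where a second GBP cluster lies, the gap was narrower for the 2 genes of the set. Gbp8 had 10.4, 13.1 and 13.05 CPM in C CM and 6.71, 7.55 and 6.53 CPM in AC CM, a log2 fold change of -0.82 ± 0.14 (SE) and of -0.87 without AC CM 2 and 3. Gbp9 had 95.5, 100.5 and 115 CPM against 71.7, 71.4 and 68.8 CPM, a log2 fold change of -0.55 ± 0.08 (-0.535 without AC CM 2 and 3). The AC CM libraries of Gbp9 lay close together, and the groups of neither gene overlapped. The coding sequences of the 2 genes were 90.3% identical over 1574 aligned bases. Of the 50-base windows of the Gbp8 transcript, 21.2% also occur in another gene, chiefly in Gbp11 (10.5%) and Gbp4 (9.38%), both with larger differences than Gbp8, as given further on. Reads from such windows may have been dropped or assigned to either copy, which the sources used here do not state, and Gbp8 had the highest share of such windows among the 10.

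The regulator IRGs on chromosome 11 differed little between the groups. Irgm1, which guards the host's own membranes and mitochondria, had 194, 184 and 235 CPM in C CM and 213, 209.8 and 182 CPM in AC CM. The groups overlap in most of their range, and the log2 fold change was -0.02 ± 0.10 (SE). It moved between -0.09 and 0.09 over the alternatives, changing sign, and was 0.06 without AC CM 2 and 3. Irgm2 had 152, 148 and 161 CPM against 123, 113 and 116 CPM, a log2 fold change of -0.39 ± 0.07 (-0.32 without AC CM 2 and 3). Igtp had 78.1, 70.0 and 82.6 CPM against 62.1, 61.9 and 68.5 CPM, a log2 fold change of -0.26 ± 0.08 (-0.31 without AC CM 2 and 3), and its highest AC CM library (AC CM 3) came close to its lowest C CM library (C CM 2). The call on Igtp was lost on leaving out any 1 library other than C CM 2. Igtp and Irgm2 share 162 exon bases in GENCODE M21, and 12.3% of Igtp's 50-base windows also occur in Irgm2.

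Iigp1, an effector IRG that is loaded onto the Toxoplasma vacuole, lies on chromosome 18 (60376029 to 60392627, plus strand). It had 121, 122 and 163 CPM in C CM and 81.3, 95.2 and 93.8 CPM in AC CM. C CM 3 stood above the other C CM libraries, the groups did not overlap, and the log2 fold change was -0.59 ± 0.12 (SE). It was -0.74 without AC CM 2 and 3 and -0.43 at its smallest when 1 library was left out. By family, the median log2 fold change was -1.10 for the 6 GBPs and -0.32 for the 4 IRGs. C CM 3 was the highest C CM library for 9 of the 10 genes, and the lowest was C CM 2 for 6 of them and C CM 1 for 4. In AC CM no library led in this way: AC CM 1, 2 and 3 were the highest for 3, 5 and 2 genes.

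For the 7 genes with a promoter window, log2 fold changes overlapped in range whether or not the window held a GAS. A link between motif and difference was not tested. Among the 3 genes with an IRF core and no GAS in the window (Gbp2, Gbp3 and Irgm1), the log2 fold change ran from -1.21 to -0.02. Among the 4 with both (Gbp5, Gbp7, Igtp and Irgm2), it ran from -1.36 to -0.26. Igtp and Irgm2, whose 40 bases with the motifs differ at a single position, had -0.26 and -0.39.

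**Figure D2:**
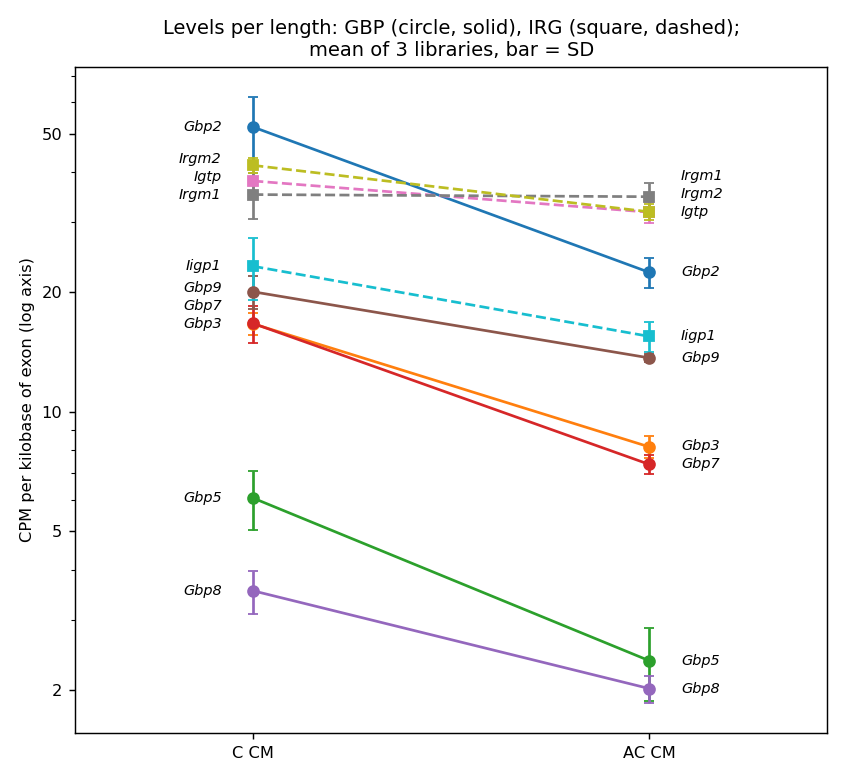
Mean level of each gene in CPM per kilobase of exon union (log axis) in C CM and AC CM, with the SD of 3 libraries; circles and solid lines are GBPs, squares and dashed lines IRGs. The line of Gbp2 runs from 51.9 to 22.4 and crosses the lines of Irgm1, Irgm2 and Igtp, while Irgm1 runs nearly level.

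Levels of different genes can be compared only per length, and here the order depended on the length used. Over the union of a gene's GENCODE exons, Gbp2 led in C CM at 51.9 ± 9.93 CPM per kb (SD, n = 3), followed by Irgm2 at 41.6 ± 1.89, Igtp at 38.0 ± 3.14 and Irgm1 at 35.2 ± 4.63, with neighbours among these 4 within their SDs. Over the longest coding transcript, Irgm1 led in C CM at 90.4 ± 11.9 CPM per kb, since that transcript has 2259 bases against 5810 in the union, and Gbp2 followed at 51.9 ± 9.93. Iigp1 moved likewise, from 23.2 ± 4.08 to 43.3 ± 7.61 CPM per kb. In AC CM, Irgm1 led by either length, at 34.7 ± 2.91 over the union, not separable from Irgm2 (31.8 ± 1.41) and Igtp (31.7 ± 1.86), and at 89.3 ± 7.49 over the transcript. By either length Gbp2 stood above Irgm2 and Igtp in C CM, though not clear of Irgm2 by their SDs, and below both in AC CM at 22.4 ± 1.96 CPM per kb. Gbp9, Gbp3, Gbp7, Gbp5 and Gbp8 were the 5 lowest genes in both groups by either length. Over the union they had 20.02 ± 1.93, 16.6 ± 1.03, 16.7 ± 1.79, 6.06 ± 1.03 and 3.55 ± 0.44 CPM per kb in C CM, and 13.7 ± 0.31, 8.16 ± 0.53, 7.37 ± 0.40, 2.37 ± 0.49 and 2.01 ± 0.16 CPM per kb in AC CM. The transcript length was tried after seeing the data, and which transcripts these cells make was not tested.

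Beyond the 10 genes, the table holds 18 further genes of the GBP and IRG families and their giant relatives, and 16 could be tested. Of these 16, 9 fell in AC CM, 0 rose and 7 did not pass, where 13.3% of all genes fell and 13.3% rose, and all 16 log2 fold changes were below 0 (median -0.44). At an unadjusted p under 0.05 edgeR held 0 higher genes too, and DESeq2 called 10 genes lower and 0 higher. The list was chosen with earlier results of these data known. Gbp4, on chromosome 5, had 30.8, 20.01 and 31.9 CPM in C CM and 6.61, 8.46 and 5.31 CPM in AC CM. The drop was -2.02 ± 0.22 (SE) on the log2 scale (edgeR, adjusted p = 0.00036), a larger value than for any of the 10 genes, with the differences between genes not tested. Gbp6 had 56.0, 61.1 and 58.5 CPM against 35.1, 40.3 and 41.5 CPM (log2 fold change -0.59, adjusted p = 0.0012 by edgeR). These are also the only 2 of the 16 that were called without AC CM 2 and 3. Gbp11, a polymorphic pseudogene, was near the limit of detection, with 57, 33 and 91 counts against 8, 0 and 13 (log2 fold change -3.27 ± 0.88, edgeR adjusted p = 0.024). Leaving out C CM 1, C CM 3 or AC CM 1 ended that call. Gbp10 (-0.56, edgeR adjusted p = 0.092) missed the threshold, and shares 70.6% of its 50-base windows with Gbp6. Of the windows of Gbp6, 90.2% also occur in Gm43302 and 62.3% in Gbp10. The counts of Gbp6 may therefore not be its own alone. Gbp2b had 7, 9 and 40 counts in C CM and 0 in each AC CM library, too few to be tested.

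**Figure D3:**
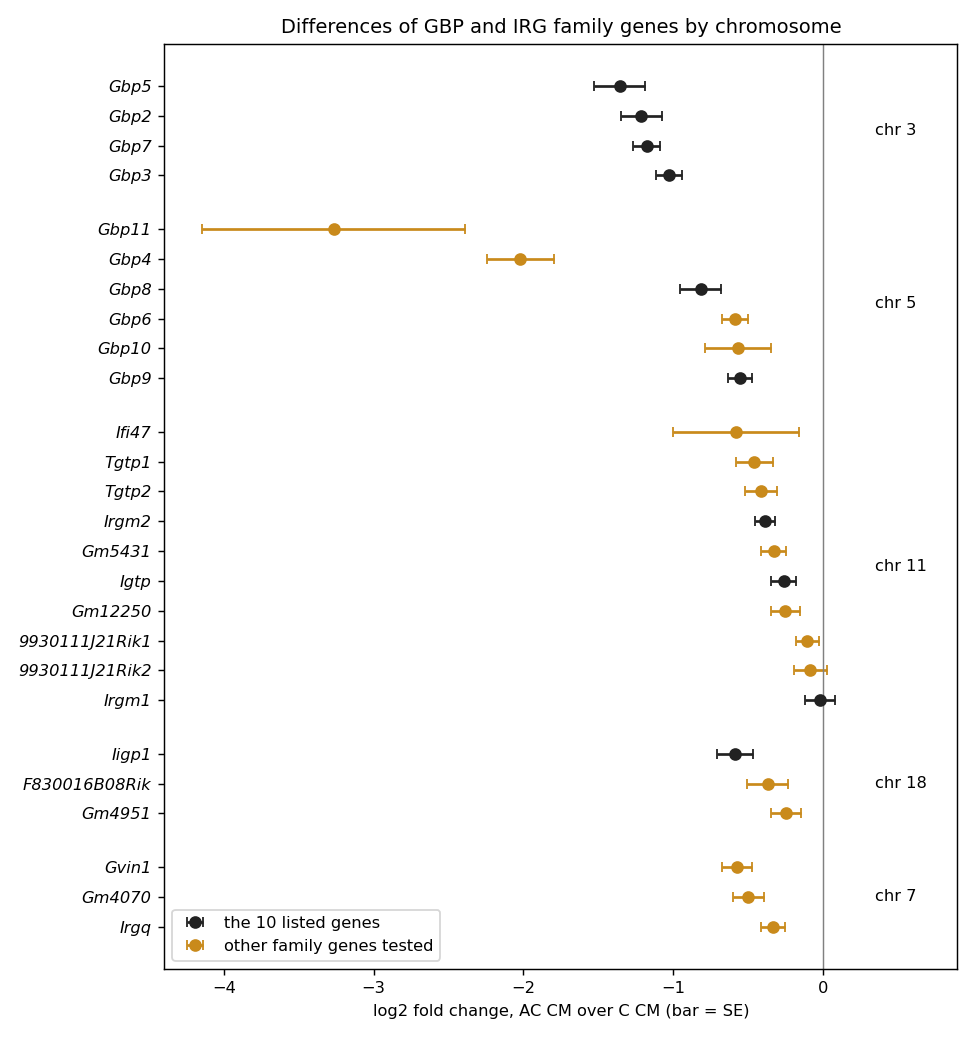
Log2 fold change of AC CM over C CM (horizontal axis, bars are SE) of the 10 listed genes (black) and the 16 other family genes tested (orange), grouped by chromosome. The chromosome 3 genes lie between -1.36 and -1.03, the chromosome 11 genes between -0.58 and -0.02, and Gbp4 and Gbp11 furthest from 0.

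The IRG effectors outside the set differed by smaller amounts than Gbp4. Tgtp1 (-0.46, edgeR adjusted p = 0.026) and Tgtp2 (-0.41, adjusted p = 0.019) fell, with 111, 119 and 148 CPM of Tgtp2 in C CM against 94.7, 98.8 and 89.7 CPM in AC CM. These 2 copies share most of their transcript windows (89.8% of those of Tgtp2), and their calls are not independent. Both calls were lost without AC CM 1 or AC CM 3, and that on Tgtp1 also without C CM 3. Ifi47 had 96.2, 59.9 and 128 CPM against 75.0, 78.2 and 37.0 CPM, overlapping groups with an edgeR adjusted p of 0.39. Gm5431 (-0.33, adjusted p = 0.019) was called, but not without AC CM 2, AC CM 3, C CM 2 or C CM 3. Its near-copies 9930111J21Rik1 (-0.10, adjusted p = 0.36) and 9930111J21Rik2 (-0.08, adjusted p = 0.63) did not pass, and neither did Gm12250 (-0.25, adjusted p = 0.090). GENCODE M21 annotates Gm12250 as a processed pseudogene, yet it was well detected. It had 33.8, 34.9 and 41.5 CPM in C CM and 31.5, 31.5 and 29.6 CPM in AC CM. On chromosome 18, Gm4951 (-0.25, adjusted p = 0.10) and F830016B08Rik (-0.37, adjusted p = 0.083) did not pass either. Without C CM 1, these last 5 genes were all called lower, and the count of the list was 13. Without AC CM 3 it was 5. Irgq (-0.33, adjusted p = 0.014), a distant member of the IRG family, was lost without AC CM 2 or AC CM 3, and Irgc1 had too few counts to be tested. The giant GTPases Gvin1 (-0.57, edgeR adjusted p = 0.0031) and Gm4070 (-0.50, adjusted p = 0.0067) fell; 98.3% of the windows of Gvin1 also occur in Gm4070, so their calls are not independent.

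Upstream of these genes, the interferon-gamma receptor and its kinases did not pass the test, and part of the factors below them fell. The list of interferon ligands, receptors and JAK-STAT genes had 26 testable members of 30: 8 fell, 2 rose and 16 did not pass, where 13.3% of all genes fell and 13.3% rose, with a median log2 fold change of -0.13. Ifng itself had 13, 8 and 19 counts in C CM and 0, 8 and 0 in AC CM, too few to be tested. It reached at most 0.28 CPM in any library, and Ifna4 was at 0 in all 6. The receptor chains Ifngr1 (0.11 ± 0.06 SE, edgeR adjusted p = 0.19) and Ifngr2 (-0.08 ± 0.06, adjusted p = 0.37) and the kinases Jak1 (-0.15 ± 0.06, adjusted p = 0.083) and Jak2 (0.19 ± 0.08, adjusted p = 0.13) did not pass. Jak1 passed without C CM 1 (edgeR adjusted p = 0.0080) and with upper quartile scaling of all 6 libraries (edgeR adjusted p = 0.046).

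Irf8, a factor of the macrophage lineage that acts with IRF1, fell from 358, 314 and 347 CPM to 271, 233 and 235 CPM (log2 fold change -0.46 ± 0.08, edgeR adjusted p = 0.0032). Irf1 had 82.0, 74.9 and 144 CPM against 70.6, 54.1 and 48.9 CPM. C CM 3 stood well above the other C CM libraries, as it was also the highest for 9 of the 10 GBP and IRG genes, and Irf1 did not pass (-0.79 ± 0.30, edgeR adjusted p = 0.12). Irf9, a factor of type I interferon signalling, was at 0.08 ± 0.06 (adjusted p = 0.41). Socs1, the feedback inhibitor of JAK signalling, had 9.46, 3.63 and 3.58 CPM against 3.21, 2.93 and 2.21 CPM and did not pass in edgeR (-0.997 ± 0.39, adjusted p = 0.10), but did in DESeq2 (adjusted p = 0.024). C CM 1 was far above the other libraries, and without it the log2 fold change of Socs1 was -0.37. Socs3 (-0.87, edgeR adjusted p = 0.0011), Stat3 (-0.50, adjusted p = 0.00038) and the cytokine Il15 (-0.63, adjusted p = 0.0025) fell. Il27 (0.84) and Ifnar1 (0.20) were the 2 that rose. Ifnar2, which encodes the partner chain of Ifnar1, fell (-0.23, edgeR adjusted p = 0.017). Il27, Ifnar1 and Ifnar2 were named after their values were seen. Without AC CM 2 and 3, which leaves AC CM 1 alone in its group, the log2 fold changes were -0.33 for Irf8 and -0.87 for Socs3. In the same fit they were -0.53 for Stat3 and -0.62 for Il15. Without AC CM 1, 6 genes of the list were called.

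Of other genes that interferon-gamma induces, more fell than rose, and most did not pass. Of 25 testable genes of 26, 7 fell, 1 rose and 17 did not pass, where 13.3% of all genes fell and 13.3% rose. The median log2 fold change was -0.30, 21 of the 25 were below 0, and Ido1 was at 0 in every library. The list shares genes with the one above, Irf1 and Socs1 among them. Ciita, the master activator of MHC class II genes, had 12.5, 10.5 and 11.5 CPM in C CM and 0.71, 0.26 and 0.38 CPM in AC CM, a log2 fold change of -4.69 ± 0.32 (SE, edgeR adjusted p = 2.4e-05). Slamf8 (-2.09, adjusted p = 3.0e-05), Serpina3g (-1.67, adjusted p = 0.00035) and Cd274, which encodes PD-L1 (-0.91, adjusted p = 4.4e-05), also fell. Ciita is also a gene of dendritic and B cells, whose markers were lower in AC CM. The gene that rose was Psmb8 (0.23), named after its value was seen. Without AC CM 2 and 3, 6 genes of the list were called, all lower. They were the 4 just named as falling and the chemokines Cxcl9 (-3.17, edgeR adjusted p = 0.0075) and Cxcl10 (-1.70, adjusted p = 0.0098), which had not passed with all libraries and are named after their values were seen.

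**Figure D4:**
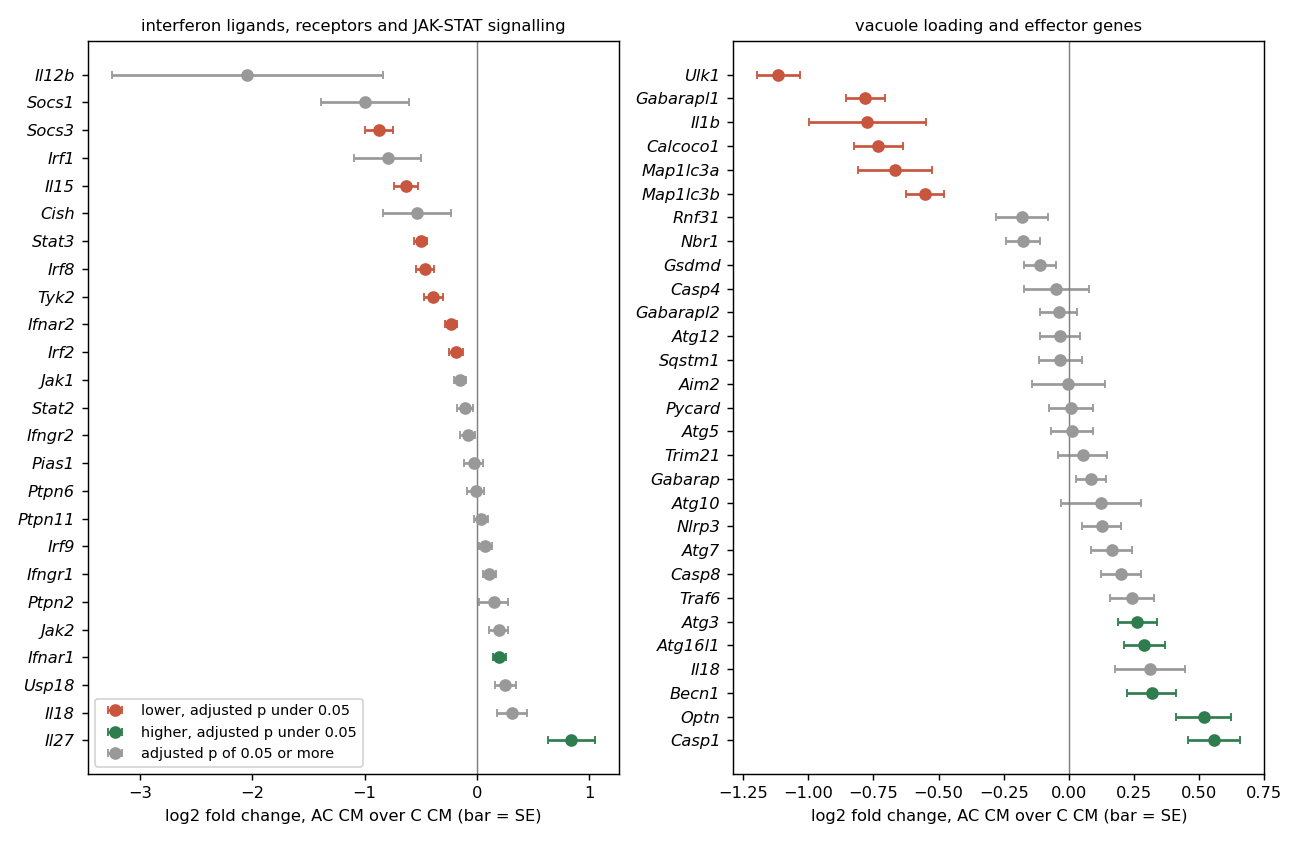
Log2 fold change of AC CM over C CM (bars are SE) of 25 of the 26 tested genes of interferon signalling (left) and the 29 genes of vacuole loading and effector steps (right). Red and green mark genes called lower or higher at an adjusted p under 0.05 and grey the others. Stat3 and Irf8 are red and the receptor chains Ifngr1 and Ifngr2 grey; on the right Ulk1 is furthest to the left and Casp1 to the right.

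Among genes that act with the GTPases, some fell and some rose. The list covers the ubiquitin-like conjugation system of autophagy, which GBPs and IRGs need to reach a vacuole, the ubiquitin ligases and adaptors found there, and the inflammasome genes downstream. All 29 could be tested: 6 fell, 5 rose and 18 did not pass, where 13.3% of all genes fell and 13.3% rose, with a median log2 fold change of 0.0085. Ulk1, the kinase that starts autophagy, fell from 109.6, 94.5 and 92.9 CPM to 45.9, 45.9 and 45.4 CPM (-1.11 ± 0.08 SE, edgeR adjusted p = 2.9e-05). Gabarapl1 (-0.78, adjusted p = 0.00012), Map1lc3b (-0.55, adjusted p = 0.00073) and the autophagy receptor Calcoco1 (-0.73, adjusted p = 0.00057) fell with it. Becn1 (0.32, edgeR adjusted p = 0.036) and another autophagy receptor, Optn (0.52, adjusted p = 0.0068), rose. Of the genes that build the conjugate, Atg3 (0.26, adjusted p = 0.029) and Atg16l1 (0.29, adjusted p = 0.026) rose, and Atg5 (0.01, adjusted p = 0.94), Atg7 (0.16, adjusted p = 0.17), Atg10 (0.12, adjusted p = 0.61) and Atg12 (-0.03, adjusted p = 0.79) did not pass. Casp1, the inflammasome protease, rose from 55.4, 72.6 and 68.6 CPM to 95.5, 94.6 and 99.3 CPM (0.56 ± 0.10, edgeR adjusted p = 0.0035). Casp4, which encodes the LPS sensor caspase-11 that GBPs help to activate, had -0.05 (adjusted p = 0.82) and Aim2 0.00. Il1b, of the same list, fell (-0.77, edgeR adjusted p = 0.033). Becn1, Optn, Casp1, Casp4, Aim2, Il1b and these Atg genes were named after their values were seen. Without AC CM 2 and 3, 3 of the 29 genes were called (Map1lc3b no longer, edgeR adjusted p = 0.080), and 7 when AC CM 2 or AC CM 3 alone was left out.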

How the data were processed

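mRNA of 6 libraries was sequenced on an Illumina instrument, per the labels' protocols. The authors deposited 1 table of 52550 genes with whole-number counts per gene, unnormalized as their differing totals show. Their normalized signal columns equal the deposited counts times a constant per library and were not tested. The log2 fold changes and p-values are the authors' deposited comparison and were not used for results. The submitters' processing notes list R 3.4.3, HISAT2 2.1.0, fastp 0.17.1 and DESeq2 1.18.1 without roles. For the counting program, strand use, build and annotation: not given in the sources used here. Of 52403 gene identifiers matched to GENCODE M21 (GRCm38), 95.2% had the same coordinates.

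Counts were tested with edgeR 4.0.16 (R 4.3.3; filterByExpr, TMM scaling, robust quasi-likelihood test, AC CM against C CM), with Benjamini-Hochberg adjustment over 17863 genes and a threshold of 0.05. The code was tested on simulated data. CPM uses TMM-scaled totals; CPM per kb divides by the union of GENCODE exons. No replicate pair of a group agreed within sampling noise (chi-square per gene 27.2 or more). The members and gene lists were chosen with earlier results of these data known. Named were all members, all other family genes, 9 fixed signalling genes and, in each pathway list, up to 4 genes with the smallest p (all called if 6 or fewer); exceptions are stated, and 1 signalling gene is counted in its lists but not reported here. Marker lists are given as sums, with the largest gene named for dendritic cells and monocytes. Coding bases are from GENCODE M21 transcripts, and protein sequences were not used here. Alternatives covered scaling, filters, limma-voom (limma 3.58.1), DESeq2 1.42.0, a replicate block, counts divided by 4 and left-out libraries; the count of members called and a second gene length were added after seeing the data.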

Additional observations from a re-analysis of the deposited data

How the results depend on the processing

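Over 15 alternatives, 148 of 150 log2 values of the 10 genes moved by less than 1 SD between replicates. The 10 genes called lower numbered 8 with limma-voom or with no filter on low counts, and 8 to 9 when 1 library was left out; the gene lost, beside Irgm1, was Igtp. Without AC CM replicates 2 and 3 the calls were 4 of the 10 genes, 2 of the other family genes, 1 of the signalling genes, 6 of the interferon-gamma targets (8 with all libraries), 3 of the vacuole loading and effector genes and 1274 of all genes (4741 with all libraries). That fit has 1 AC CM library, so fewer samples carry it. Leaving out 1 library at a time gave 3158 to 5023 calls over all genes, 5 to 13 other family genes, 6 to 11 signalling genes, 6 to 10 interferon-gamma targets and 7 to 12 loading and effector genes. No called direction reversed. Replicate numbers are shared by the groups, but same-numbered libraries did not deviate together (correlations -0.12 to -0.014). With so few libraries per group, this cannot show that they were unpaired, and the labels do not say. With the replicate block, 4397 genes were called, with 9 of the 10 genes, 9 other family genes, 9 signalling genes, 7 targets and 9 loading and effector genes. Depth limits Gbp11, Gbp2b, Irgc1 and Ifng, all near or under the filter on low counts.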
